A study of Mus musculus with 6 samples.

Results

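Chromatin organization host genes are genes with a role in packing DNA into nucleosomes, or in reading and rewriting that packing, whose transcripts also gave circular RNAs in mouse liver. They were chosen from the GO terms listed for each host gene, by the term for chromatin organization or the term for covalent chromatin modification. Genes that also carried the listed terms for rhythmic processes or for lipid or fatty acid metabolism were not taken, and Cdyl, Smarca5 and Rnf169 were left out by name. This gave 116 of 3468 host genes (3.345%), with 269 of the 7379 circRNAs that had a host gene. A further 90 listed circRNAs lay between genes and had no host, so that 7469 were listed in all. All 116 host genes carried the term for chromatin organization.

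Liver RNA came from male C57BL/6J mice, a common inbred strain, at 12 weeks of age, with no transgene or deletion named for either diet. The mice had been fed a high-fat diet (HFD, n = 3 libraries) or a low-fat diet (LFD, n = 3 libraries), and the comparison asks which circRNAs differ in liver between obese and lean mice. A read across the back-spliced junction, the point at which a ring closes, was counted for each circRNA in each library after depletion of ribosomal RNA. The normalized signal, SRPBM, is that count divided by the library's mapped reads and multiplied by a constant, and 1 read was worth 0.2294 to 0.2768 SRPBM over the 6 libraries.

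A circRNA forms when the splicing machinery joins the donor of a later exon to the acceptor of an earlier one, so that the exons between them close into a ring that lacks free ends. Long flanking introns with pairing repeats are known to favour this reaction. Chromatin regulators include writers that place methyl, acetyl or ubiquitin groups on histones, erasers that remove them, readers that bind them, and remodelers that use ATP to move nucleosomes. In the liver such regulators are known to take part in the response of metabolic genes to feeding and fasting. A circRNA count of such a gene reports the circle and not the linear mRNA or the protein, neither of which was measured here.

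The libraries held 5384 to 6590 back-spliced reads each, 36218 in all, so that the counts of single genes were small. A signal of 3 reads, taken as the smallest that can be told from none, was 0.688 to 0.83 SRPBM, and floors and intervals here cover counting error only. In RNA from a whole liver, fewer cells of a type and less RNA per cell cannot be told apart. Of 15 hepatocyte markers 12 gave circRNA reads, 18 to 39 per HFD library and 6 to 23 per LFD library, with Cyp7a1, Cp and Mat1a at 0. Of 5 Kupffer cell markers 2 had reads, with 0 to 2 per HFD library and 2 to 3 per LFD library, and Clec4f at 0. Stellate cell markers had 1 read and endothelial markers 5 reads, while the cholangiocyte and lymphocyte markers had none. The libraries fell into 2 classes of reported base quality, with HFD1 and LFD3 in the higher class. The share of all reads from intronic circles was 10.78% in HFD1 and 8.283% in LFD3 against 4.556% to 5.432% in the other 4.

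The junctions of the chromatin circles with the most reads are shown here because the junction is the stretch that every counted read had to cross. Each line gives the last 20 bases of the last exon in lower case, then the first 20 bases of the first exon in capitals, 5′ to 3′ on the strand of the gene. The bases are those of the GENCODE M21 transcripts. The Pbrm1 junction is that of a circle past the thresholds used below, and the other lines follow the order of reads.
Tlk1 mmu_circ_0001032: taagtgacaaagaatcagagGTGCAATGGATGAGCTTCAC
Tox mmu_circ_0001180: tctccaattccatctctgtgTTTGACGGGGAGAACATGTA
Arid1a mmu_circ_0001283: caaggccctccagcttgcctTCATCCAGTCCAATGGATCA
Arid1b mmu_circ_0006811: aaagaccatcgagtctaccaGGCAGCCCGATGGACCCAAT
Kansl1 mmu_circ_0000330: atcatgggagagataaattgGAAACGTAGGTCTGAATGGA
Chd2 mmu_circ_0014385: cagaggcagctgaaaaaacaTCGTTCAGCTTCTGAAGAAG
Ash1l mmu_circ_0001148: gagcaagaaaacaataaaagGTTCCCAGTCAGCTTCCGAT
Jmjd1c mmu_circ_0000173: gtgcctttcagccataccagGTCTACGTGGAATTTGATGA
Pbrm1 mmu_circ_0005189: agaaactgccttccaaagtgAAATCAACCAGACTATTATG

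The positions that follow are as listed. The submitters' processing notes name mm9, but 88.67% of the 6406 exonic circRNAs had both ends on exon ends of their listed transcript in GENCODE M21, which is on GRCm38, and 97.74% did so within 1 bp. Positions and exon numbers are therefore those of GRCm38.

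The chromatin host genes gave 1342 of the 36218 reads (3.705%). In HFD1, HFD2 and HFD3 they held 237, 240 and 237 reads, and in LFD1, LFD2 and LFD3 they held 174, 206 and 248 reads. The share of each library was 3.693%, 3.642% and 3.947% on the HFD and 3.232%, 3.724% and 3.943% on the LFD. The diets overlapped, since the lowest share was in LFD1 and the next lowest in HFD2. The exact (Clopper-Pearson) 95% intervals ran from 2.776% to 3.74% in LFD1 and from 3.468% to 4.47% in HFD3, the library with the highest share. The mean share was 3.76% ± 0.163 on the HFD and 3.63% ± 0.364 on the LFD (SD, n = 3), and the difference of 0.127 percentage points was smaller than either SD. Without LFD1 the difference turned to -0.0732 percentage points, and it was 0.586 percentage points when circRNAs seen in a single library were not counted. Within the lower base-quality class the shares were 3.642% and 3.947% on the HFD against 3.232% and 3.724% on the LFD. In the higher class they were 3.693% in HFD1 and 3.943% in LFD3.

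**Figure D1:**
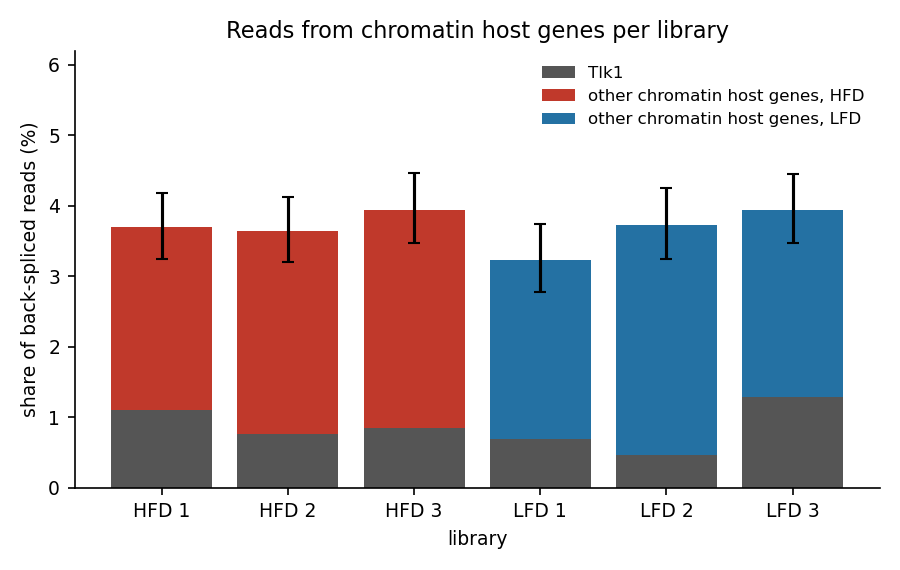
Share of back-spliced reads (%) from chromatin host genes in each of the 6 libraries, with Tlk1 in grey and the other chromatin host genes in red (HFD) or blue (LFD). Error bars are exact 95% binomial intervals of the whole bar and cover counting error only. The bars lie between 3.232% and 3.947%, and the diets overlap.

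The reads were spread unevenly over the genes. Tlk1 alone held 23.55% of them, 32 of the 116 genes had a single read, and 48 had 1 or 2 reads. The 31 genes with at least 10 reads held 1090 reads (81.22%). Reads in all 6 libraries were found for 15 genes (12.93%, against 9.746% of all host genes), and 51 genes had reads in 1 library alone. A chromatin host gene had a median of 4 reads and 1.5 circRNAs, and the medians over all host genes were 3 reads and 1 circRNA. Single circRNAs were mostly sparse, with 185 of 269 seen in 1 library (68.77%, against 72.67% of all listed circRNAs) and 6 seen in all 6. A database name was listed for 113 of the 269 (42.01%), and these held 67.44% of the reads. Over all listed circRNAs the matching values were 28.48% and 45.85%.

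The kinases and other modifiers were the group with the most reads, 352 from 4 genes, nearly all from Tlk1. Tlk1 is a Tousled-like kinase that phosphorylates the histone chaperone Asf1. It had 71, 50 and 51 reads in HFD1 to HFD3 and 37, 26 and 81 reads in LFD1 to LFD3, 316 in all, and ranked 6 among all 3468 host genes. The highest and the lowest counts were both in LFD libraries. The signal was 14.2 ± 1.84 SRPBM on the HFD and 12.8 ± 7.53 SRPBM on the LFD (SD, n = 3), a log2 fold change of 0.12 ± 0.33 (SE, edgeR quasi-likelihood test, adjusted p = 0.976). The adjusted p of this test, over all host genes tested, was the same 0.976 for every gene tested whose reads are given below, unless another value stands beside them. In each diet the 1 library of the higher base-quality class had the highest signal, at 16.3 SRPBM in HFD1 and 21.4 SRPBM in LFD3. Within the lower class, Tlk1 was at 12.7 and 13.7 SRPBM on the HFD against 9.85 and 7.2 SRPBM on the LFD. The log2 fold change there was 0.54 (edgeR, unadjusted p = 0.172). With base-quality class as a term over all 6 libraries it was 0.22 (edgeR, unadjusted p = 0.437). The effect of base-quality class itself was not tested.

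Tlk1 gave 6 circRNAs, and its 2 leading circles shared a start. The first, mmu_circ_0001032 (chr2:70770004-70786995, minus strand), joined exons 2 to 3 of 22 into a ring of 191 bp, next to an upstream intron of 38197 bp. It had 53, 35 and 30 reads on the HFD and 28, 23 and 54 reads on the LFD. The second, circRNA1217, extended the same start through exon 4 to a ring of 260 bp. It had 15, 13 and 19 reads on the HFD and 9, 3 and 25 reads on the LFD. Of the 314 reads in the circles of Tlk1 that could be placed on exons, 312 came from 3 circles that began at exon 2. The shorter ring made up 77.9%, 72.9% and 61.2% of the reads of both rings on the HFD and 75.7%, 88.5% and 68.4% on the LFD. Its mean share was 70.7% ± 8.58 and 77.5% ± 10.2 (SD, n = 3), a difference within the spread between libraries.

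**Figure D2:**
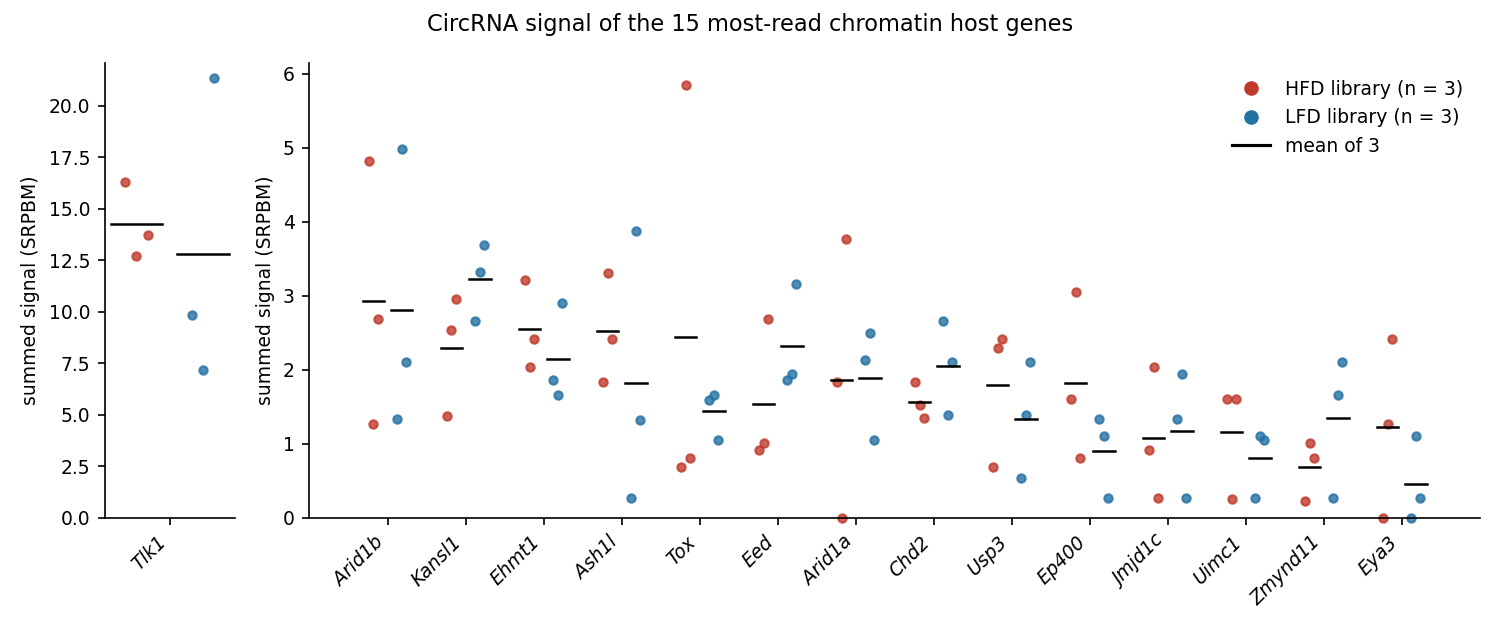
Signal (SRPBM, summed over the circRNAs of a gene) of the 15 chromatin host genes with the most reads, with Tlk1 on an axis of its own. Points are libraries, red for HFD and blue for LFD, and black lines are means of 3. The diets overlap in every gene shown.

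Eya3 and Tlk2 belong to the same group. Eya3 is a protein tyrosine phosphatase known to act on a histone variant at DNA breaks. It had 0, 5 and 9 reads on the HFD and 0, 4 and 1 reads on the LFD. HFD1 and LFD1 both had none, so that the diets overlapped. Tlk2, the paralog of Tlk1, was chosen after its values were seen, and its 15 reads were 1, 4 and 6 on the HFD and 3, 0 and 1 on the LFD.

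ATP-dependent remodelers were the largest group by genes, with 19 host genes, 54 circRNAs and 265 reads. Arid1b and Arid1a are alternative DNA-binding subunits of the BAF (SWI/SNF) complex. Arid1b had 21, 5 and 10 reads on the HFD and 5, 18 and 8 reads on the LFD, with a high library in each diet and a log2 fold change of 0.10 ± 0.65 (SE). Its leading circle, mmu_circ_0006811 (chr17:5040580-5127024, plus strand), held exons 2 to 4 of 19 in 465 bp and had 43 of the 67 reads. Arid1a had 8, 0 and 14 reads on the HFD and 8, 9 and 4 reads on the LFD. All 43 came from 1 circle, mmu_circ_0001283 (chr4:133719537-133723051, minus strand), which held exons 2 to 4 of 20 in 780 bp. Both paralogs thus had their leading circle in exons 2 to 4, and the difference between diets was within its error in each (Arid1a log2 fold change -0.06 ± 0.80, SE).

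Chd2, a chromodomain helicase, had 8, 6 and 5 reads on the HFD and 10, 5 and 8 reads on the LFD, with a log2 fold change of -0.41 ± 0.81 (SE). Its main circle, mmu_circ_0014385 (chr7:73514090-73519708, minus strand), held exons 3 to 5 of 39. Ep400, the ATPase of a complex that exchanges histone variants, had 7, 12 and 3 reads on the HFD and 5, 4 and 1 reads on the LFD (log2 fold change 0.96 ± 0.94, SE). HFD3 lay below LFD1 and LFD2, so the diets overlapped. Its circles circRNA956 (exons 2 to 3 of 52) and mmu_circ_0001388 (exon 2 alone, 1370 bp) began at the same exon and had 15 and 14 reads.

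Pbrm1, the polybromo subunit of the PBAF complex, had 3, 7 and 0 reads on the HFD and 1, 1 and 2 reads on the LFD. One of its circles passed the thresholds described below. All 19 remodelers together had 59, 45 and 42 reads on the HFD and 41, 45 and 33 reads on the LFD. HFD1 was the highest library, and the other 5 held 33 to 45 reads.

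Lysine methyltransferases counted 17 host genes with 58 circRNAs and 191 reads, and 10 of the 17 had reads in enough libraries to be tested. Ehmt1 encodes an enzyme that methylates histone H3 in silent chromatin. It had 14, 8 and 9 reads on the HFD and 7, 6 and 11 reads on the LFD (log2 fold change 0.23 ± 0.71, SE). Ash1l, a methyltransferase linked to active genes, had 8, 13 and 9 reads on the HFD and 1, 14 and 5 reads on the LFD (log2 fold change 0.45 ± 0.75, SE). The LFD libraries of Ash1l spanned the whole range of the HFD libraries and beyond. With 11 circRNAs each, these 2 genes had more circles than any other chromatin host gene. The circles of Ash1l lay along the whole gene, from exon 2 alone to exons 20 to 24 of 28, and its leading circle, mmu_circ_0001148 (chr3:89001773-89007877, plus strand, exons 4 to 5, 838 bp), had 26 of the 50 reads. The leading circle of Ehmt1, mmu_circ_0000992, held exons 16 to 18 of 27. Carm1, a coactivator and the only arginine methyltransferase among the 116 genes, had 1 read, in HFD1, and could not be tested.

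The acetyltransferase group held 8 host genes and 102 reads, 63 of them from Kansl1, a scaffold of the complex around the acetyltransferase Kat8. Kansl1 had 6, 10 and 11 reads on the HFD and 10, 12 and 14 reads on the LFD (log2 fold change -0.55 ± 0.67, SE). In SRPBM the diets overlapped, at 2.29 ± 0.819 on the HFD and 3.23 ± 0.521 on the LFD (SD, n = 3). Its leading circle, mmu_circ_0000330 (chr11:104368680-104378826, minus strand, exons 3 to 4 of 14, 241 bp), had 3, 6 and 1 reads against 6, 9 and 8 reads (log2 fold change -1.36 ± 1.12, SE). The counts of this circle met at 6 reads in HFD2 and LFD1, and its SRPBM values did not overlap. The lowest adjusted p of any chromatin circRNA was 0.694 (edgeR).

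Among the genes chosen, the demethylases and the deacetylase and co-repressor genes gave fewer reads. Genes of the same roles outside the choice of terms held 50 and 321 reads. Of 9 demethylases with 60 reads, Jmjd1c, a member of the JmjC family, had the most, with 4, 8 and 1 reads on the HFD and 5, 7 and 1 reads on the LFD. The order of the libraries was much alike in both diets, and the log2 fold change was -0.15 ± 1.02 (SE). Nearly all of its reads, 24 of 26, came from mmu_circ_0000173 (chr10:67157907-67189849, plus strand, exons 2 to 3 of 10). The 8 deacetylase and co-repressor genes had 19 reads together, and the leading one, Arid4a, which binds the retinoblastoma protein, had 0 reads in each HFD library and 0, 1 and 4 reads on the LFD (edgeR, adjusted p = 0.798). Both of its mean levels were under the floor of 3 reads, and no fold is given.

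Polycomb genes numbered 8 with 85 reads. Eed and Suz12 are core subunits of the complex that methylates histone H3 at silenced genes. Eed had 4, 4 and 10 reads on the HFD and 7, 7 and 12 reads on the LFD (log2 fold change -0.65 ± 0.79, SE). HFD3 exceeded LFD1 and LFD2, so that the diets overlapped. Suz12 had 12 reads over 6 circles, 0, 0 and 3 on the HFD and 7, 0 and 2 on the LFD, and 7 of its 12 reads were thus in LFD1.

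Readers of histone marks were the group whose summed level was furthest apart in proportion among the groups with at least 60 reads. The 9 genes had 3, 9 and 11 reads on the HFD and 10, 18 and 17 reads on the LFD, or 1.98 ± 1.17 and 4.04 ± 1.22 SRPBM (SD, n = 3). HFD3 lay above LFD1, so the diets still overlapped. Of the 6 readers tested none passed the thresholds. Their median log2 fold change was -1.01, beside -0.09 over all host genes tested. With genes without reads in 1 diet set to their bound, among these readers Mbtd1, the medians were -0.81 and 0. The reader list held 10 further host genes outside the choice of terms, and none of the 8 tested was called. Their log2 fold changes were above 0, save that of Phf14, which is named because of its values. The lower level on the HFD was thus not seen across all listed readers. Zmynd11, a reader of histone H3 methylation, had 1, 4 and 3 reads on the HFD and 1, 6 and 8 reads on the LFD. Mbtd1 is named here because of its values. Mbtd1, a reader with MBT repeats, had 0 reads in every HFD library and 2, 1 and 3 reads on the LFD (edgeR, adjusted p = 0.798). It had the lowest unadjusted p of any chromatin host gene, on 6 reads.

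Among 6 ubiquitination genes with 65 reads, Usp3, a deubiquitinase of histones, led with 3, 9 and 9 reads on the HFD and 2, 5 and 8 reads on the LFD (log2 fold change 0.34 ± 0.87, SE). DNA methylation genes gave 7 reads, of which Dnmt3a, a de novo DNA methyltransferase, had 4, all on the LFD (0, 3 and 1 reads, edgeR, adjusted p = 0.798). The histone chaperones gave 4 reads, and Hira, which deposits a histone H3 variant, had 3 of them in LFD2 and could not be tested. Dnmt3a and Hira had 3 reads or fewer in every library, and a difference was not detectable at this depth.

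The remaining 22 genes fell on none of the 12 lists of roles and held 123 reads. Together they had 19, 33 and 25 reads on the HFD and 15, 15 and 16 reads on the LFD, or 6.49 ± 2.03 and 4.12 ± 0.116 SRPBM (SD, n = 3), and these sums did not overlap between the diets. Without Tox the counts were 16, 10 and 22 against 9, 9 and 12, and the sums overlapped. Tox, an HMG-box DNA-binding protein, led them with 3, 23 and 3 reads on the HFD and 6, 6 and 4 reads on the LFD. HFD2 was far above the other 5 libraries, which had 3 to 6 reads. The log2 fold change was 0.68 ± 0.80 (SE), and without HFD2 it turned to -0.90. All 45 reads came from 1 circle, mmu_circ_0001180 (chr4:6822905-6842426, minus strand), of exons 2 to 3 of 9 between introns of 147963 and 81337 bp. Uimc1, a ubiquitin-binding protein that brings repair factors to DNA breaks, had 7, 1 and 6 reads on the HFD and 1, 4 and 4 reads on the LFD (log2 fold change 0.50 ± 1.09, SE).

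The diet comparison was run on all host genes with reads in at least 2 libraries. Of the 116 chromatin host genes 65 (56.03%) could be tested, against 52.88% of all host genes, and 51 could not. A call needed an unadjusted p below 0.05 together with a log2 fold change of 1 or more in either direction. By the edgeR quasi-likelihood test none of the 65 was called, where 2.29% of all 1834 host genes tested were. The number of chromatin host genes with an unadjusted p under 0.05 was also 0, as it was with DESeq2 and with the edgeR exact test. The log2 fold change was above 0 for 30 of the 65 (46.15%, against 47.06% of all host genes tested) and below 0 for 35. Their median was -0.10, and that of all host genes tested was -0.09. With the 8 chromatin host genes that had no reads in one diet set to their bound, the median was 0, as it was for all host genes. All 8 lay under the floor and so counted as 0, which by itself draws the median to 0. Over genes with reads in both diets the medians were -0.10 and -0.09. The lowest adjusted p of a chromatin host gene was 0.798, which was also the lowest of any host gene.

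In SRPBM, groups that did not overlap were found for 3 of the 65, among them Mbtd1, which was lower on the HFD. Another was Banp, a nuclear matrix-binding protein chosen after its values were seen. It had 2, 2 and 1 reads on the HFD and 1, 0 and 0 reads on the LFD. The counts of Banp met at 1 read in HFD3 and LFD1, and only the SRPBM values, 0.2686 and 0.2663, set these libraries apart. Both values lay under the floor of 3 reads. Over all host genes tested 6.22% did not overlap. Among the 31 genes with at least 10 reads, 7 had a log2 fold change at least 1 away from 0. Each of these 7 had an SE above 1, and none had an unadjusted p under 0.05 (edgeR). The matching share over all host genes was not computed.

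**Figure D3:**
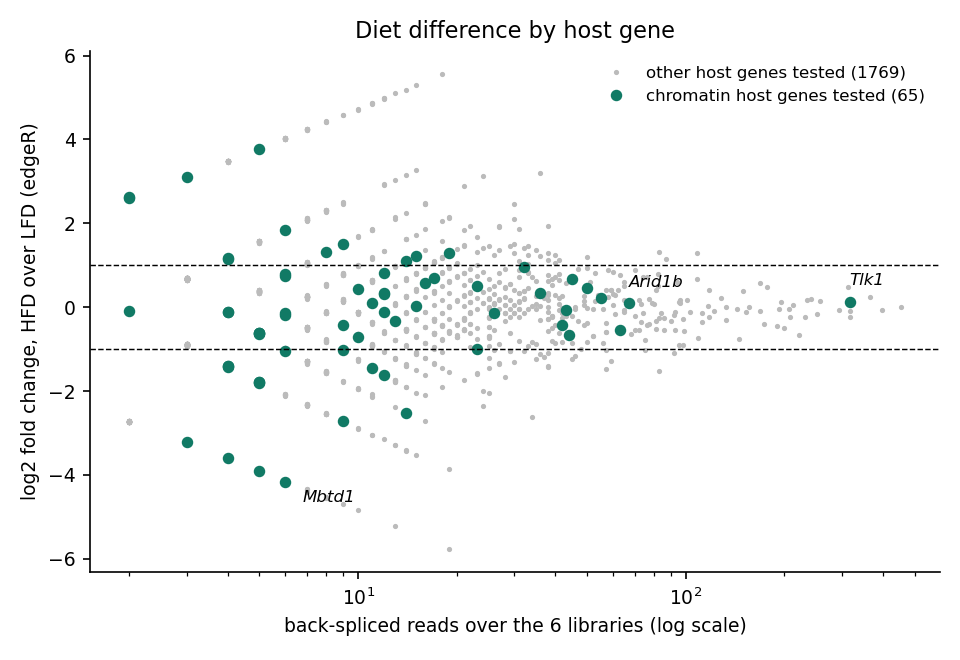
Log2 fold change of HFD over LFD by edgeR (vertical axis) against back-spliced reads over the 6 libraries (horizontal axis, log scale) for the host genes tested. Green points are the 65 chromatin host genes, grey points the other host genes, and dashed lines mark log2 fold changes of -1 and 1. The spread widens toward few reads, and the green points lie within the grey ones.

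Of the 269 circRNAs, 84 could be tested and 185 could not. By edgeR 2 of the 84 passed the same thresholds, where 2.4% of all 2041 circRNAs tested did, and both were higher on the HFD. The first was circRNA2539 of Eya3 (chr4:132656693-132673032, plus strand, exons 2 to 6 of 10, 424 bp), with 0, 5 and 5 reads on the HFD and 0 in every LFD library. Its mean HFD signal was 1.08-fold that of 3 reads in each LFD library, with the error of the HFD mean not counted (edgeR, adjusted p = 0.694). The second was mmu_circ_0005189 of Pbrm1 (chr14:31030844-31036059, plus strand, exons 5 to 7 of 33, 409 bp), with 3, 7 and 0 reads on the HFD and 0 in every LFD library. Its mean HFD signal was 1.02-fold that of 3 reads in each LFD library, taken in the same way (edgeR, adjusted p = 0.694). Each had an HFD library at 0, so that the diets overlapped. Neither passed by DESeq2 or by the edgeR exact test, and neither passed when any single LFD library or HFD2 was left out. Without HFD1 only the Eya3 circle passed, and without HFD3 only the Pbrm1 circle did.

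The exons inside the circles were read from the listed transcripts. Of the 269 circRNAs 239 were exonic and 30 intronic (11.15%, against 13.1% of the other circRNAs), and 234 of the exonic ones could be placed. They held a median of 3 exons and 423.5 bp of spliced sequence, from 112 to 2702 bp, and the other circRNAs a median of 3 exons and 398 bp. Circles of 2 or 3 exons numbered 133 (56.84%, against 56.56%), and 16 had a single exon. The listed transcripts of the chromatin circles had a median of 19 exons, against 15. The intron upstream of the circle had a median of 8239 bp, against 6940 bp, while the downstream introns were nearly alike, at 5245 and 5250 bp. These medians are descriptions, since circles of 1 gene share its transcript.

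Exon 2 was the first exon of 61 placed circles (26.07%), against 28.82% of the other circRNAs. These circles held 56.44% of the reads of placed chromatin circles, against 36.18%. Without Tlk1 the share was 41.67%. Exon 2 opened the leading circles of Tlk1, Tox, Arid1a, Arid1b, Jmjd1c, Usp3, Ep400 and Zmynd11. Start codons and coding sequence were taken from all annotated transcripts of a gene, so that a circle could hold a start codon of 1 transcript and lie within the coding sequence of others. By this reading 54 of the circles held a start codon (23.08%, against 19.45%), and all bases of 191 were coding in some transcript (81.62%, against 84.65%).

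**Figure D4:**
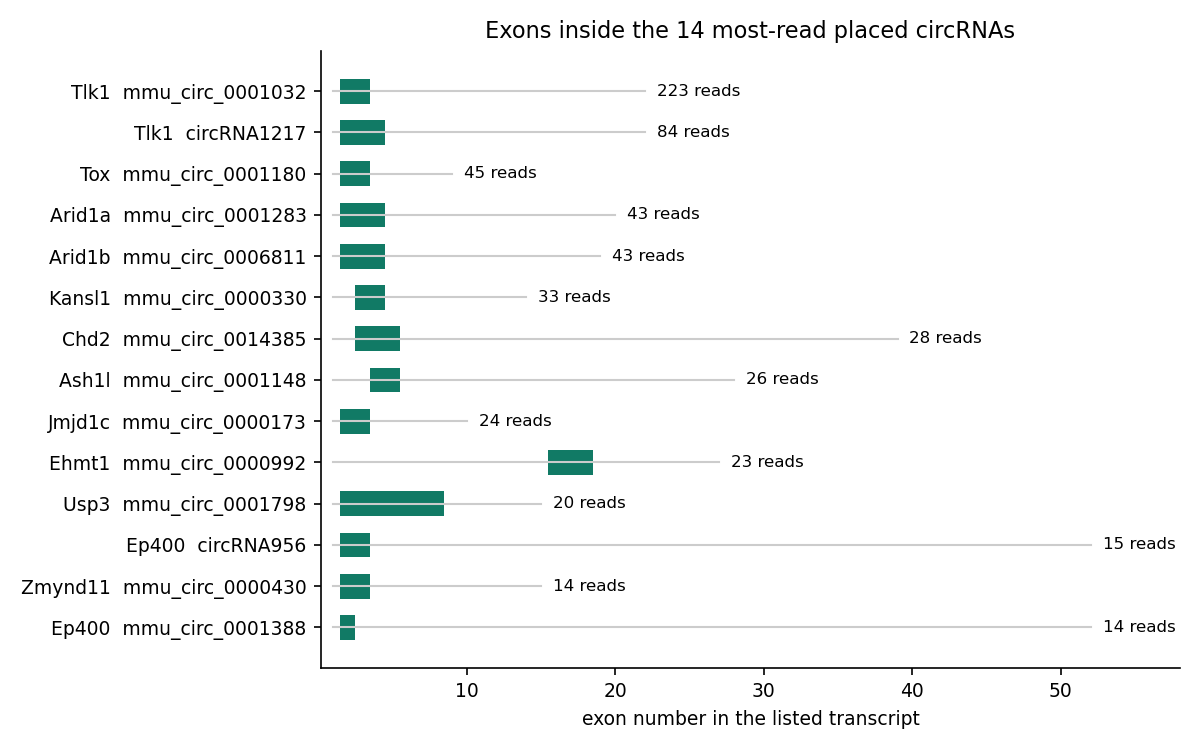
Exon numbers (horizontal axis, counted along the listed transcript) inside the 14 placed chromatin circRNAs with the most reads. Green bars mark the exons in the circle, grey lines run from exon 1 to the last exon, and the reads over the 6 libraries stand at the right. Most bars begin at exon 2 or 3, and that of Ehmt1 lies at exons 16 to 18.

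Intronic circles gave 3.8% of the reads of the chromatin host genes, against 6.672% for the other circRNAs. They had 17, 5 and 10 reads on the HFD and 3, 7 and 9 reads on the LFD, or 4.49% ± 2.56 and 2.92% ± 1.04 of the chromatin reads (SD, n = 3). HFD1 was the highest, as it was for the intronic share of all reads. The diets overlapped.

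Some circles were listed under entries whose starts lay 1 bp apart with the same end. There were 11 such pairs in 11 chromatin host genes, and 24 of the 269 entries (8.922%, against 9.292% of all entries) had a neighbour 1 bp away. In all 45 combinations of a pair and a library with reads, only 1 of the entries had reads. The entry mmu_circ_0014455 of Eed (chr7:89955531-89962361, minus strand) had 4, 4 and 10 reads on the HFD and 7, 0 and 11 reads on the LFD, while its neighbour circRNA5654 had 7 reads in LFD2 and none elsewhere. The Chd2 entry mmu_circ_0014385 had 8, 5 and 4 reads on the HFD and 0, 5 and 6 reads on the LFD, and its neighbour circRNA4886 had 6 reads, all in LFD1. Summed, Chd2 had 8, 5 and 4 against 6, 5 and 6 reads. In Eed and Chd2, the library without reads of one entry thus held reads of the other.

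Uimc1 showed how a pair bears on the diet comparison. Its entry mmu_circ_0000464 had 6, 0 and 5 reads on the HFD and 1, 0 and 0 reads on the LFD, and its neighbour circRNA5592 had 0 reads on the HFD and 0, 3 and 3 reads on the LFD. With the entries summed, the counts were 6, 0 and 5 against 1, 3 and 3, and the log2 fold change was 0.50 (edgeR, adjusted p = 0.984). In Usp3, mmu_circ_0001798 had 3, 9 and 0 reads against 0, 5 and 3, and circRNA4082 had 0, 0 and 9 against 2, 0 and 0. Their sum was 3, 9 and 9 against 2, 5 and 3 (edgeR, adjusted p = 0.984). The sums per gene given above already join such entries.

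**Figure D5:**
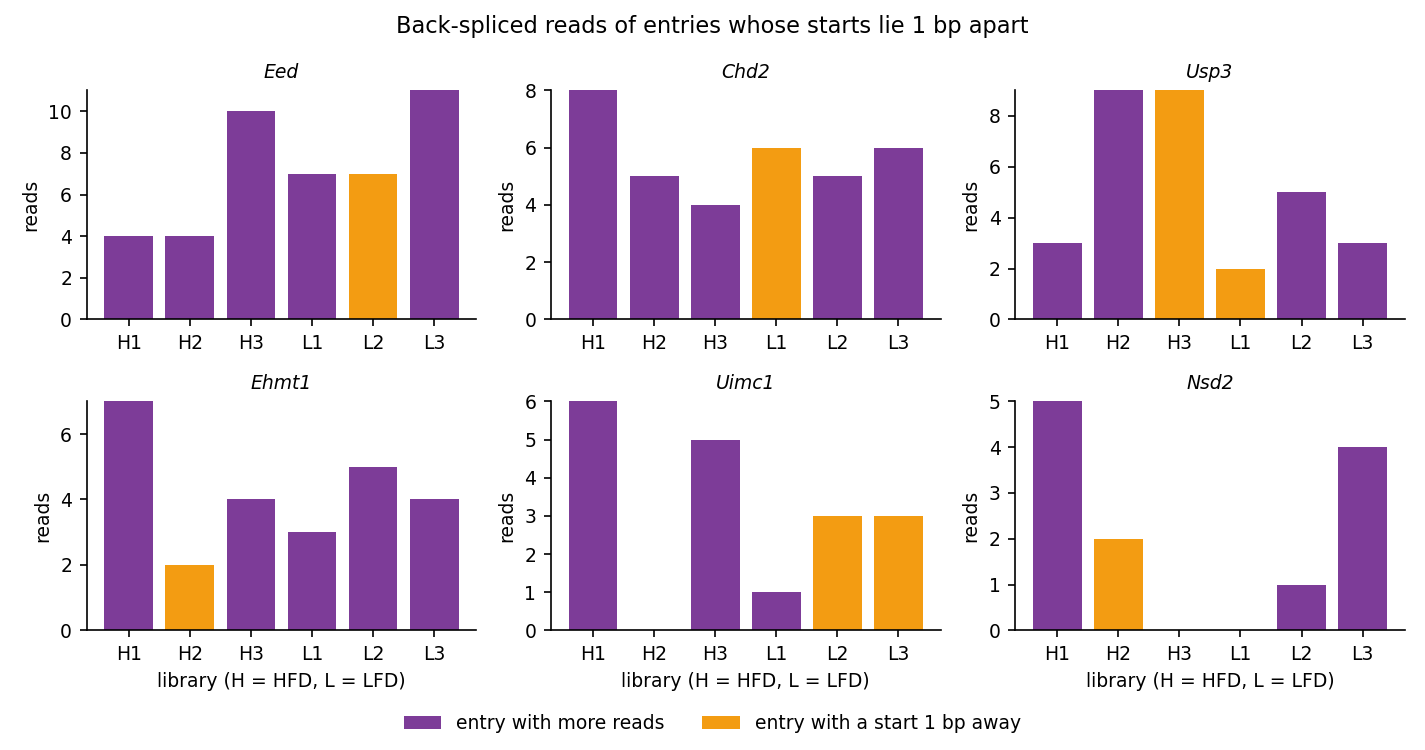
Back-spliced reads (vertical axis) in each library (H for HFD, L for LFD) of the 6 chromatin host genes whose paired entries had the most reads. Purple is the entry with more reads and orange the entry whose start lies 1 bp away. No library has both colours.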

How the data were processed

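CircRNA profiles were compared between liver RNA of 3 HFD and 3 LFD mice, grouped by sample title. Per the methods of the study, the authors trimmed reads (Cutadapt), mapped them (Bowtie2, TopHat2, TopHat-Fusion) and took circRNAs from 2 callers, CIRCExplorer2 and CIRI. The submitters' processing notes give TopHat2 2.0.4 and cutadapt 1.9. RNase R treatment is described in the methods and not in the sample labels. Raw counts of back-spliced reads per circRNA and library were deposited. The authors also deposited SRPBM, a signal normalized to mapped reads, which was the count times 1 factor per library. The deposited host gene names and GO terms chose the genes.

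Counts were summed per host gene. Features with reads in 2 libraries or more were tested over the whole table with the edgeR quasi-likelihood test (TMM). A call needed an unadjusted p below 0.05 and a log2 fold change of 1 or more in either direction, and p-values were adjusted by Benjamini-Hochberg. The common dispersion was 0.562 for host genes and 1.168 for circRNAs. In a simulation, 8-fold changes were set only in host genes with at least 10 reads, as 31 of the chromatin host genes had. Of the changed genes tested, 95.5% were called at a dispersion of 0.05 and 41.71% at 1. At an adjusted p under 0.05, 165 changed genes were found at a dispersion of 0.05 and 0 at 1. The fitted dispersion was not simulated, and recovery in genes with fewer reads was not measured. Depth was 5384 to 6590 reads per library. The labels do not say more of the libraries than their diet and number, so p-values measure the spread between these libraries. A fitted log2 fold change against a diet without reads depends on the prior count. The edgeR test gives no SE. The SE of a log2 fold change was derived here as its size divided by the square root of the F statistic, and is approximate.

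Genes named are the 15 with the most reads, those called or with a called circRNA, the leading gene of each role list, and the 8 with the most circRNAs. Junctions are those of the 10 circRNAs with the most reads and of called circRNAs. They are shown where both ends lay on exon ends of the listed transcript and all 40 bases were coding in some annotated transcript. Other genes are said to be chosen after their values were seen. The genes and role lists were chosen with earlier results of these data known. Alternatives were other normalizations, tests, pseudocounts, filters, a replicate block, base-quality class and each library left out. The result of 1 gene is not reported here, although sums and counts include it. RT-qPCR and network predictions were not analysed here. The software was Python 3.11.15 (pandas 2.3.3, SciPy 1.17.1, NumPy 2.4.6, matplotlib 3.10.9) and R 4.3.3 (limma 3.58.1, edgeR 4.0.16, DESeq2 1.42.0).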

Additional observations from a re-analysis of the deposited data

How the results depend on the processing

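No chromatin host gene was called by the edgeR quasi-likelihood test. The number was 2 with limma at a pseudocount of 0.5 (Mbtd1 among them), 1 with reads required in at least 3 libraries (Mbtd1) and 2 in the lower base-quality class alone (Brd1 and Mbtd1), where these settings called 72, 55 and 51 of all host genes. With each library left out in turn it was 0 to 1, from Brd1 without HFD1 and Tbl1xr1 without LFD1, where 52 and 61 of all host genes were called. The numbers tested under these settings are not given here, so these counts cannot be read as shares. The 2 called circRNAs became 0 with DESeq2, the edgeR exact test, limma at a pseudocount of 1, no filter, reads in at least 3 libraries, at least 10 reads, the replicate block, and base-quality class as a term or its lower class alone. They became 0 to 1 with each library left out. With limma at a pseudocount of 0.5 the calls were those of Eya3, Ep400 (circRNA956) and Kansl1 (mmu_circ_0000330). The share difference of 0.127 percentage points was 0.586 when circRNAs with reads in at least 2 libraries alone were counted, and -0.0732 to 0.282 with each library left out.

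Over all host genes the 42 calls became 14 with the replicate block and 72 with limma at a pseudocount of 0.5, and the 49 circRNA calls became 10 and 74. Libraries with the same number did not deviate together (correlations of -0.155, 0.185 and -0.208 over 391 host genes), so the numbers were not taken as pairs. No named host gene was called in any of the 351 recomputed values, of which 20 changed sign. The log2 fold changes themselves moved, and some crossed 1 in size. That of Ash1l went from 0.45 to 1.585 without LFD2, and that of Pbrm1 from 1.10 to 0.075 without HFD2. Of 219 values for the named circRNAs, 196 were called or not called as in the main fit. A call was lost in 22 and gained in 1, and 23 changed sign uncalled. Depth limited the comparison, since 51 of the 116 genes had reads in 1 library alone and could not be tested.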

Other observations

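Other genes of the role lists also gave circRNAs in these livers but lay outside the choice of terms. There were 97 such host genes with 1032 reads, and none of the 69 tested was called by edgeR at the thresholds used above, where 2.29% of all host genes tested were. Phf21a, a subunit of a co-repressor complex with histone demethylase activity, had 42, 29 and 28 reads on the HFD and 34, 22 and 37 reads on the LFD. Its 192 reads exceeded those of every chromatin host gene chosen except Tlk1, and its signal was 8.18 ± 1.26 SRPBM and 8.3 ± 1.95 SRPBM (SD, n = 3). Asxl2, a Polycomb-associated protein, had 7, 14 and 22 reads on the HFD and 14, 12 and 10 reads on the LFD. Kmt2a, a histone methyltransferase that also carried an excluded term, had 5, 18 and 14 reads on the HFD and 5, 14 and 6 reads on the LFD, and the diets overlapped. These 3 genes were chosen for their reads after the values were seen.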
